A study of Mus musculus with 6 samples.

Results

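The 51 genes described here copy the genome or supply its building blocks: they license and open replication origins, unwind and copy the DNA, join the new strands, make the deoxynucleotides (dNTPs), and restore DNA methylation and nucleosomes behind the fork. They were listed by gene symbol and role, with earlier results of these data known, so the list is not a blind choice. Each of the 51 was among the 24421 genes of the count table. RNA was sequenced from primary cultures of endothelial cells, isolated from capillaries of the stria vascularis, the vascularised epithelium of the cochlear lateral wall, in 6 libraries with 1 culture per library. Of these, 3 cultures came from *Nhe6*-knockout mice and 3 from wildtype mice, all between postnatal days 10 and 12 and without any treatment. The knockout is a targeted gene disruption carried by the whole animal. The labels give the strain background of both genotypes as C57BL/6N, whereas the methods of the study state backcrossing to C57bl6/j. The methods of the study state that the stria vascularis was dissected together with the spiral ligament. Each culture pooled the cells of several mice, which were purified by cell sorting and grown in endothelial medium with serum, so that no value belongs to a single animal. The sources used here do not say whether cultures of 1 genotype shared animals.

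Replication starts from origins that are licensed when the origin recognition complex, *Cdc6* and *Cdt1* load the ring of *Mcm2* to *Mcm7* onto DNA. *Cdc45* and the GINS complex then turn this ring into the active helicase, the DNA polymerases copy the strands it opens, and ribonucleotide reductase supplies the dNTPs. Many of these genes are transcribed mainly around the start of S phase under E2F transcription factors, whereas the subunits of the origin recognition complex other than *Orc1* are made through most of the cell cycle.

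Levels are given as normalised counts. A normalised count is the number of reads on a gene after scaling every library to the same size. Libraries held 25587097 to 29126232 reads on genes. Wildtype replicate 2 stood apart on the first principal component of all genes, at 106 against -28.5 to -6.52 in the other libraries. *Nhe6*-knockout replicates 1 and 2 were the most alike pair, although they differed by more than sampling noise (chi-square per degree of freedom 4.91, against 90.1 to 398 in the other pairs of the same genotype). The 12 endothelial markers were unequal. *Cldn5* had no read in any library. The highest count in a library was 8 reads for *Pecam1*, 2 for *Tie1*, 15 for *Erg*, 25 for *Vwf* and 68 for *Kdr*. In contrast, *Emcn* had 9896 to 18385 normalised counts in *Nhe6*-knockout and 13407, 409 and 14723 in wildtype cultures. *Eng* had 4467 to 5079 in *Nhe6*-knockout and 4789, 866 and 2721 in wildtype cultures. Wildtype replicate 2 was the lowest of all cultures for both *Emcn* and *Eng*. *Cdh5*, which encodes VE-cadherin, was the 1 marker of the 7 tested that passed the threshold, with 220, 232 and 179 normalised counts in *Nhe6*-knockout and 2508, 5198 and 3468 in wildtype cultures (log2 fold change -4.15, edgeR adjusted p = 0.0133, and up to 0.181 across the alternatives). The summed level of the 12 endothelial markers was 15867 to 24522 in *Nhe6*-knockout and 10979 to 22408 in wildtype cultures, and that of the 10 fibroblast markers was 240707 to 265666 and 192255 to 303509. In every culture but wildtype replicate 2, *Emcn* alone made the larger part of the endothelial sum.

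The promoters show a sequence feature that many of these genes share and that their choice did not use. RefSeq promoters on GRCm38.p6, from 250 bases before to 50 bases after a start site, were found for 43 of the 51 genes. The stretches below lie before the start site and outside annotated exons (those of *Cdc6* and *Uhrf1* between exons of longer transcripts), and were picked to set genes with larger fold changes (*Mcm5*, *Cdc6*, *Uhrf1*, *Mcm10* and *Rrm2*) beside genes with smaller ones (*Pola1* and *Mcm6*). Each is written 5′ to 3′ on the strand of the gene, and capitals mark an E2F-type site or a CCAAT box in either orientation.
*Mcm5* (chr8:75109309-75109508, plus strand): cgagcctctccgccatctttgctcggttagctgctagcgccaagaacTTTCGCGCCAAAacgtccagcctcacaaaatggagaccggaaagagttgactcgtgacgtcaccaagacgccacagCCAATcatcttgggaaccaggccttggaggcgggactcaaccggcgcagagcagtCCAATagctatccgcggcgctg
*Cdc6* (chr11:98907982-98908150, plus strand): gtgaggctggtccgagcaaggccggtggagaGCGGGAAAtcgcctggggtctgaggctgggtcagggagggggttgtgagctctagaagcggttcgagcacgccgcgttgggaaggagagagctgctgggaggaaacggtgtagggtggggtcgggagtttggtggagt
*Uhrf1* (chr17:56304113-56304312, plus strand): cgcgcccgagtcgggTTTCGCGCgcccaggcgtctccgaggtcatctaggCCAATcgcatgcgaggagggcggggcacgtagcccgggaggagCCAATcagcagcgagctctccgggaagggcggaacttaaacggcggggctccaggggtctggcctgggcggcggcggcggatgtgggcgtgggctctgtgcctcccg
*Pola1* (chrX:93632156-93632355, minus strand): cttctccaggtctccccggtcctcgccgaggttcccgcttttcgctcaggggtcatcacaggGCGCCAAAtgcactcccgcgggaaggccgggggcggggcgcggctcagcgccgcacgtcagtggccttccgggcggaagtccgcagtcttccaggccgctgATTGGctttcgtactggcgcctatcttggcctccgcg
*Mcm6* (chr1:128359706-128359905, minus strand): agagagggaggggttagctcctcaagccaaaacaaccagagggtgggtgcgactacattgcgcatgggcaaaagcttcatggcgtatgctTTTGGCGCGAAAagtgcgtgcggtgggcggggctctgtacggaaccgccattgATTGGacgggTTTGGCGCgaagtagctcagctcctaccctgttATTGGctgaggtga
*Mcm10* (chr2:5012792-5012991, minus strand): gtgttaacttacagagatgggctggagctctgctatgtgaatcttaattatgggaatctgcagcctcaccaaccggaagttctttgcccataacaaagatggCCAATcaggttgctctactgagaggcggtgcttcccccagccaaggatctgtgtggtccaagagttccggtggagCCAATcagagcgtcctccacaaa
*Rrm2* (chr12:24708041-24708240, plus strand): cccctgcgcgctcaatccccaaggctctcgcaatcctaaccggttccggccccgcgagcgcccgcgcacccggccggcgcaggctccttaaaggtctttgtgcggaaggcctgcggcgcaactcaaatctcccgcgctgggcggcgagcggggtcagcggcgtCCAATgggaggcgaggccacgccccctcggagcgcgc

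An E2F-type site was taken as TTTCCCGC, TTTGGCGC, TTTGCCGC or TTTCGCGC on either strand. Such a site was present in 17 of the 54 promoters of these genes (31.5%), against 3.75% of the 13110 promoters of all genes tested. *Mcm5* held a pair of overlapping sites starting 153 and 149 bases before the start, and *Mcm6* held 3 sites, 110, 106 and 47 bases before it, of which the farther pair overlaps. The single sites of *Cdc6* and *Pola1* both began 138 bases before the start, and that of *Uhrf1* began 185 bases before it. No E2F-type site was found in the window of *Mcm10* or *Rrm2*, whose stretches carry 2 and 1 CCAAT boxes. The CCAAT box (CCAAT, both strands) was present in 57.4% of the promoters of these genes and in 37.5% of those of all genes tested. The CHR element, searched as TTTGAA or TTCGAA on both strands and typical of genes of mitosis, was present in 14.8% and 13.6%. These are matches of letters, and binding was not measured.

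Across the 51 genes the log2 fold changes in *Nhe6*-knockout relative to wildtype cells lay mostly above 0, but none of them passed the threshold of 0.05 on the adjusted p in edgeR's test, where 0.0668% of all 13479 genes tested did. The adjusted p ran from 0.0952 to 0.99. The log2 fold change was above 0 for 43 of the 51 genes, against 48.1% of all genes tested, and its median was 0.51 (range -0.21 to 3.35), against -0.02 for all genes tested. An unadjusted p under 0.05 was reached by 22 of the 51 genes in the direction of higher counts in *Nhe6*-knockout cells and by 0 in the other, where 6.14% and 5.71% of all genes tested did so. The same shares are the background for the counts in the role groups and other lists below. When *Nhe6*-knockout replicate 1 or replicate 2 was left out, or both were summed to 1 library, 12 of the 51 genes reached that p. In 22 of the 51 genes all 3 *Nhe6*-knockout cultures lay above all 3 wildtype cultures, against 10.3% of all genes tested, and in 3 genes (*Gins4*, *Orc2* and *Pold3*) they all lay below, against 9.57%. All 51 genes passed the filter on low counts. A larger share of cycling cells and more RNA per cell cannot be told apart in such bulk libraries.

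The count of calls depended on the test and on a single library. The Wald test of DESeq2 called 11 of the 51 genes higher (*Mcm3*, *Mcm5*, *Mcm7*, *Mcm10*, *Cdc6*, *Gmnn*, *Orc1*, *Pole*, *Rrm2*, *Tk1* and *Uhrf1*), where it called 2.85% of all genes higher, and it called 0 lower, against 1.83% of all genes. Without wildtype replicate 2, edgeR's test called 5 genes higher (*Mcm10*, *Rrm1*, *Rrm2*, *Tk1* and *Uhrf1*), where it called 1.62% of all genes higher. The median of the 51 log2 fold changes was 0.52 in that fit.

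**Figure D1:**
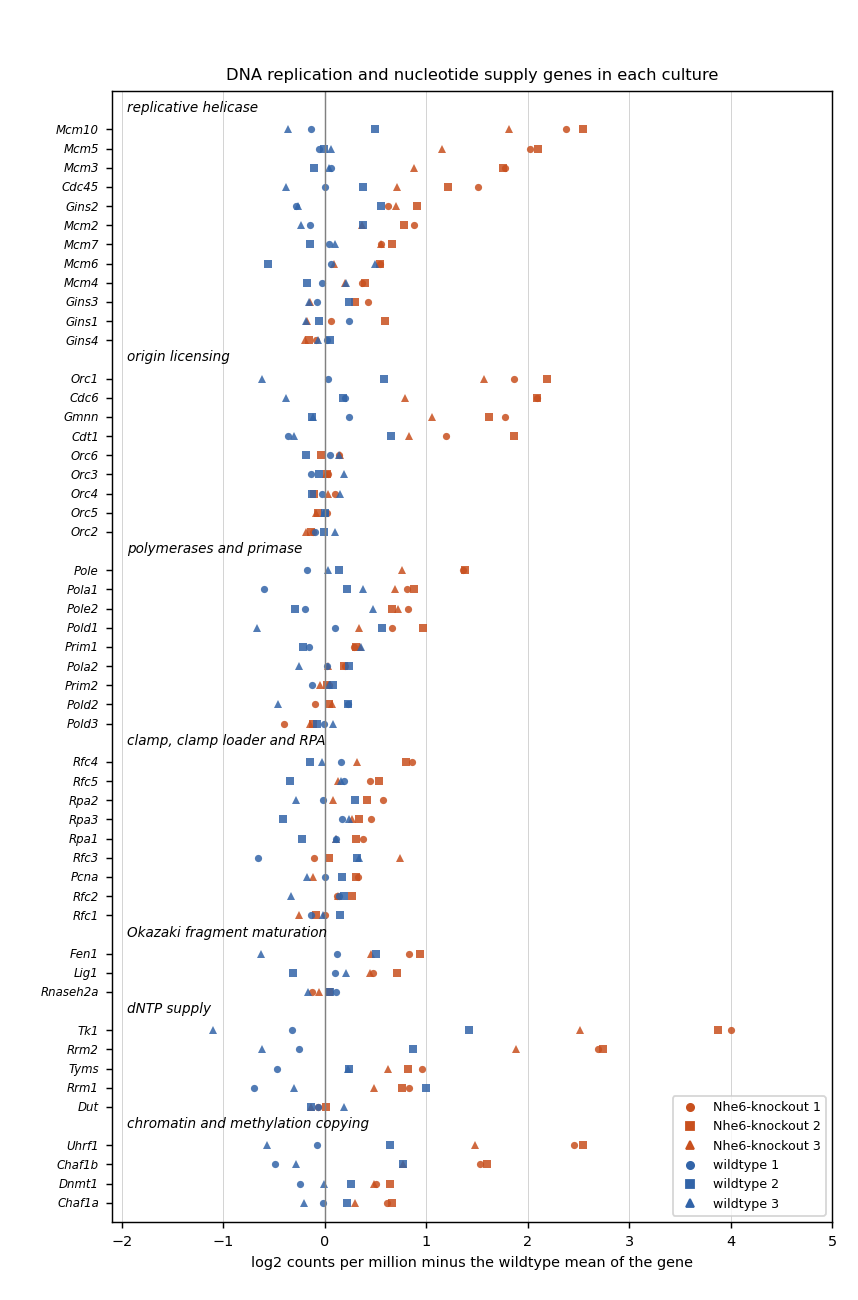
Log2 CPM (reads per gene, scaled to a common library size) of the 51 genes in each culture, minus the mean of the 3 wildtype cultures of that gene (horizontal axis), with the genes in rows by role, *Nhe6*-knockout cultures in orange and wildtype cultures in blue. In *Mcm5*, *Rrm2* and *Tk1* the 3 *Nhe6*-knockout points lie to the right of the wildtype points, whereas the points of *Orc2* to *Orc6* lie close to 0 in all 6 cultures.

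The cultures of 1 genotype did not hold equal levels. *Nhe6*-knockout replicate 3 was the lowest of its genotype in 40 of the 51 genes, against 43.1% of all genes tested, and in 20 of the 22 genes with an unadjusted p under 0.05. Wildtype replicate 2 was the highest of its genotype in 27 of the 51 genes, against 36.9% of all genes tested. A wildtype culture was the highest of all 6 in 13 genes, against 66.3% of all genes tested. Relative to the wildtype mean of each gene on the log2 scale, the median over the 51 genes was 0.54, 0.64 and 0.34 in *Nhe6*-knockout replicates 1, 2 and 3, and -0.02, 0.15 and -0.02 in the wildtype replicates. Summed over the 51 genes, the level was 34415, 34322 and 29399 normalised counts in the *Nhe6*-knockout cultures and 24502, 27442 and 26403 in the wildtype cultures. These sums did not overlap, and their means of 32712 ± 2869 and 26116 ± 1491 (SD, n = 3 cultures) differed 1.25-fold.

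Genes with many reads had the smaller differences. The 10 genes with a mean of at least 1000 normalised counts had a median log2 fold change of 0.22, with *Dnmt1* the highest at 0.53, and 1 of them had an unadjusted p under 0.05. The 15 genes with a mean under 200 normalised counts had a median of 1.17, with *Tk1* the highest at 3.35, and 10 of them had an unadjusted p under 0.05. The sums above therefore hold mainly the reads of genes such as *Rpa1*, *Rrm1* and *Orc3*, and the medians weigh each gene alike.

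**Figure D2:**
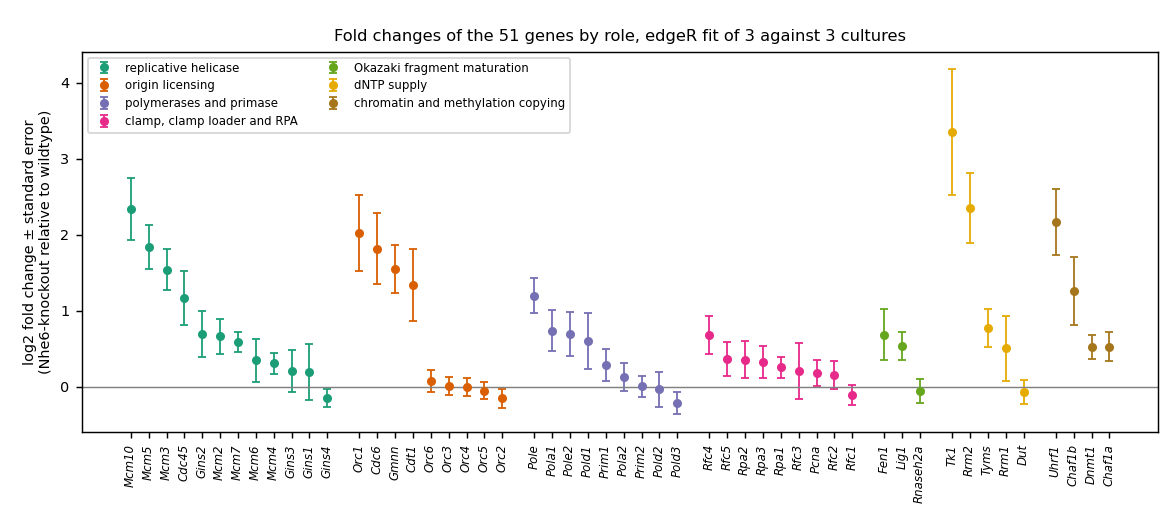
Log2 fold change of each of the 51 genes in *Nhe6*-knockout relative to wildtype cells (vertical axis; points are edgeR estimates and bars are standard errors), grouped and coloured by role. The estimates run from -0.21 for *Pold3* to 3.35 for *Tk1*, and within most roles genes with values above 1 stand beside genes near 0.

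The helicase genes were unequal within 1 complex. Of the 12 genes, 6 were higher at an unadjusted p under 0.05 (*Mcm2*, *Mcm3*, *Mcm5*, *Mcm7*, *Mcm10* and *Cdc45*), against 6.14% of all genes tested. After adjustment 0 of them passed, and the median log2 fold change of the group was 0.63 (range -0.14 to 2.34). *Mcm10*, which helps to activate the loaded helicase, lies on chromosome 2 from 4989714 to 5012791 of GRCm38 and had 104, 117 and 70 normalised counts in *Nhe6*-knockout and 16.6, 26.8 and 13.9 in wildtype cultures. Its log2 fold change of 2.34 (standard error 0.41) was the largest of the group, with an edgeR adjusted p of 0.1, and of 0.0346 without wildtype replicate 2. The *Nhe6*-knockout cultures all lay above the wildtype cultures, although the wildtype counts rested on few reads.

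Among the 6 subunits of the ring, *Mcm5* and *Mcm3* had the largest differences. *Mcm5* (chromosome 8, 75109569 to 75128439) had 432, 456 and 236 normalised counts in *Nhe6*-knockout and 101, 104 and 109 in wildtype cultures, a log2 fold change of 1.84 (standard error 0.29, edgeR adjusted p = 0.0952). *Mcm3* (chromosome 1, 20802968 to 20820312) had 673, 666 and 361 against 203, 182 and 201 normalised counts, a log2 fold change of 1.54 (standard error 0.27, edgeR adjusted p = 0.106). In both genes the wildtype cultures were close together, and *Nhe6*-knockout replicate 3 lay between them and the other *Nhe6*-knockout cultures. *Mcm7* had 946, 1021 and 946 against 661, 582 and 692 normalised counts, a smaller but even difference (log2 fold change 0.59, standard error 0.13, edgeR adjusted p = 0.138). Its introns host microRNA genes, and *Ap4m1* and *Cops6* overlap it on the opposite strand. *Mcm2* had 689, 645 and 482 against 339, 485 and 318 normalised counts, so that *Nhe6*-knockout replicate 3 lay just below wildtype replicate 2 (log2 fold change 0.67, edgeR adjusted p = 0.342).

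The other ring subunits, *Mcm4* and *Mcm6*, were the most abundant and overlapped between the genotypes. *Mcm4* had 1868, 1902 and 1663 normalised counts in *Nhe6*-knockout and 1417, 1280 and 1674 in wildtype cultures, a log2 fold change of 0.31 (standard error 0.14, edgeR adjusted p = 0.449). *Mcm6* had 1289, 1288 and 940 against 921, 601 and 1246, and the 95% interval of its log2 fold change of 0.35 ran from -0.34 to 1.03. Since the ring holds each subunit once, the genes were also set on a per-length scale of normalised counts per kb of exon. This length merges the exons of all annotated transcripts, 6956 bases for *Mcm2* and 3993 for *Mcm5*. The order and spread of the subunits on this scale therefore depend on the annotation and do not measure their balance in the ring. On this scale *Mcm4* had the highest level in each library, with 521, 530 and 463 in *Nhe6*-knockout and 395, 357 and 466 in wildtype cultures. *Mcm5* had 108, 114 and 59 on this scale against 25.2, 26.1 and 27.3. The highest of the 6 subunits exceeded the lowest 5.26-fold, 5.72-fold and 7.85-fold in the *Nhe6*-knockout libraries and 15.7-fold, 13.7-fold and 17.1-fold in the wildtype libraries. This difference was not tested. On this scale the lowest subunit was *Mcm5* in each wildtype library and in *Nhe6*-knockout replicate 3, and *Mcm2* in *Nhe6*-knockout replicates 1 and 2. Before division by length, *Mcm5* lay below *Mcm2* in those replicates too, with 432 and 456 against 689 and 645 normalised counts.

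The partners of the ring were *Cdc45* and the GINS genes. *Cdc45*, which binds the ring as the helicase is switched on, had 165, 134 and 93.7 normalised counts in *Nhe6*-knockout and 56.7, 74.3 and 42.8 in wildtype cultures (log2 fold change 1.17, standard error 0.35, edgeR adjusted p = 0.269). None of the 4 GINS genes had an unadjusted p under 0.05, and their median log2 fold change was 0.20. *Gins2* had 204, 249 and 215 against 108, 194 and 109 normalised counts, without overlap (log2 fold change 0.70, edgeR adjusted p = 0.432). *Gins4* stood on the other side, with 673, 639 and 625 normalised counts in *Nhe6*-knockout and 722, 737 and 681 in wildtype cultures. Its log2 fold change of -0.14 (standard error 0.12, edgeR adjusted p = 0.704) was the smallest of the helicase genes, although the cultures did not overlap.

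Origin licensing genes fell into a pair of sets. *Cdc6*, *Cdt1*, *Gmnn* and *Orc1* had log2 fold changes from 1.34 to 2.03 and an unadjusted p under 0.05, whereas *Orc2* to *Orc6* lay between -0.15 and 0.08 with 0 genes at that p. *Orc1*, the subunit of the recognition complex whose protein comes and goes with the cell cycle in many cells, lies on chromosome 4 from 108579423 to 108614833. It had 32.9, 41.8 and 26.5 normalised counts in *Nhe6*-knockout and 7.82, 12.4 and 4.28 in wildtype cultures (log2 fold change 2.03, standard error 0.50, edgeR adjusted p = 0.182). Its counts were the lowest of all 51 genes, so that its fold is known with little precision. *Cdc6*, the licensing ATPase, had 110, 111 and 43.5 against 28.3, 27.8 and 18.2 normalised counts (log2 fold change 1.82, standard error 0.47, edgeR adjusted p = 0.208).

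*Cdt1*, which loads the ring, had 70.1, 112 and 53.9 normalised counts in *Nhe6*-knockout and 22.5, 47.4 and 23.5 in wildtype cultures (log2 fold change 1.34, standard error 0.47, edgeR adjusted p = 0.346). Its inhibitor geminin, encoded by *Gmnn*, had 140, 125 and 84.2 against 46.9, 36.1 and 36.4 normalised counts (log2 fold change 1.55, standard error 0.32, edgeR adjusted p = 0.126). For the loader and its inhibitor alike, the lowest *Nhe6*-knockout culture lay above the highest wildtype culture. *Orc3*, the licensing gene with the most reads, had 1948, 1933 and 1923 normalised counts in *Nhe6*-knockout and 1741, 1835 and 2176 in wildtype cultures. The 95% interval of its log2 fold change of 0.01 ran from -0.28 to 0.31. *Orc2* had 961, 952 and 919 against 974, 1039 and 1121 normalised counts, a log2 fold change of -0.15 with an interval from -0.42 to 0.13.

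Polymerase and primase genes had a median log2 fold change of 0.29 (range -0.21 to 1.20). Of the 9 genes, 3 (*Pole*, *Pola1* and *Pole2*) were higher at an unadjusted p under 0.05, against 6.14% of all genes tested. *Pole*, the catalytic subunit of the leading-strand polymerase epsilon, lies on chromosome 5 from 110286306 to 110337474. It had 420, 425 and 275 normalised counts in *Nhe6*-knockout and 144, 178 and 166 in wildtype cultures (log2 fold change 1.20, standard error 0.23, edgeR adjusted p = 0.114). Its second subunit, *Pole2*, had 171, 153 and 160 against 84.1, 78.4 and 135 normalised counts (log2 fold change 0.70, edgeR adjusted p = 0.42). *Pola1*, the catalytic subunit of the polymerase that extends primers, had 475, 499 and 437 against 178, 315 and 350 normalised counts (log2 fold change 0.74, edgeR adjusted p = 0.363). The *Nhe6*-knockout cultures lay above the wildtype cultures in all 3 genes.

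*Pold3*, an accessory subunit of the lagging-strand polymerase delta, had the most reads of the group and the lowest log2 fold change of all 51 genes. It had 393, 480 and 471 normalised counts in *Nhe6*-knockout and 517, 493 and 550 in wildtype cultures (log2 fold change -0.21, standard error 0.15, edgeR adjusted p = 0.647). The primase subunits *Prim1* and *Prim2* had log2 fold changes of 0.29 and 0.01, and *Pola2*, *Pold1* and *Pold2* had 0.13, 0.60 and -0.03.

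The clamp, the clamp loader and the single-strand binding protein RPA showed the smallest range of the larger groups, from -0.11 to 0.68. Their median was 0.26. Of the 9 genes, 1 was higher at an unadjusted p under 0.05, not far from the 6.14% of all genes tested. This was *Rfc4*, a subunit of the clamp loader, with 208, 201 and 143 normalised counts in *Nhe6*-knockout and 128, 103 and 112 in wildtype cultures (log2 fold change 0.68, standard error 0.25, edgeR adjusted p = 0.361). *Rfc1*, the large subunit of the same loader, had 1876, 1763 and 1567 against 1707, 2076 and 1849 normalised counts (log2 fold change -0.11, standard error 0.13, edgeR adjusted p = 0.792). *Pcna*, the sliding clamp and a common label of proliferating cells, had 1495, 1475 and 1100 against 1194, 1341 and 1057 normalised counts. The cultures overlapped, and the 95% interval of its log2 fold change of 0.18 ran from -0.23 to 0.59. *Rpa1*, the largest RPA subunit, had 2802, 2677 and 2339 against 2337, 1846 and 2342 normalised counts (log2 fold change 0.26, edgeR adjusted p = 0.543), and the 3 RPA genes together had a median of 0.33.

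Of the 3 genes that mature Okazaki fragments, 1 was higher at an unadjusted p under 0.05, against 6.14% of all genes tested. These fragments are the short pieces of the lagging strand. *Lig1*, the ligase that seals them, had 667, 783 and 653 normalised counts in *Nhe6*-knockout and 513, 385 and 552 in wildtype cultures (log2 fold change 0.54, standard error 0.18, edgeR adjusted p = 0.33). *Fen1*, the flap nuclease, had 231, 251 and 178 against 141, 185 and 83.4 normalised counts, with *Nhe6*-knockout replicate 3 below wildtype replicate 2 (log2 fold change 0.69, standard error 0.34, edgeR adjusted p = 0.484). *Rnaseh2a*, the catalytic subunit of an RNase that removes RNA from DNA hybrids, had 296, 334 and 311 against 349, 334 and 289 normalised counts, a log2 fold change of -0.05.

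The supply of dNTPs held the largest differences of the 51 genes. *Tk1*, the cytosolic thymidine kinase that salvages thymidine, lies on chromosome 11 from 117815526 to 117826092. It had 213, 196 and 74.8 normalised counts in *Nhe6*-knockout and 8.8, 34 and 4.28 in wildtype cultures. All *Nhe6*-knockout cultures lay above all wildtype cultures, and the log2 fold change was 3.35 (standard error 0.83, edgeR adjusted p = 0.187). Without wildtype replicate 2, its highest wildtype culture, the log2 fold change was 4.58 (edgeR adjusted p = 0.0346). *Afmid* overlaps *Tk1* on the opposite strand, and the strand setting of the counting is not given in the sources used here.

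*Rrm2*, the small subunit of ribonucleotide reductase made in S phase, lies on chromosome 12 from 24708241 to 24714146. It had 948, 984 and 541 normalised counts in *Nhe6*-knockout and 121, 266 and 94.1 in wildtype cultures (log2 fold change 2.36, standard error 0.46, edgeR adjusted p = 0.114), and without wildtype replicate 2 its log2 fold change was 2.93 (edgeR adjusted p = 0.0227). *Rrm1*, the large subunit of the same enzyme, behaved otherwise, with 2930, 2790 and 2300 against 1017, 3289 and 1336 normalised counts. Wildtype replicate 2 held the most *Rrm1* of all 6 cultures, and the log2 fold change moved from 0.51 (edgeR adjusted p = 0.719) to 1.18 (edgeR adjusted p = 0.0364) when that culture was left out. *Tyms*, thymidylate synthase, had 369, 335 and 291 against 136, 224 and 221 normalised counts (log2 fold change 0.78, standard error 0.25, edgeR adjusted p = 0.301). *Dut*, which removes dUTP, had 354, 372 and 337 against 354, 337 and 422 normalised counts, a log2 fold change of -0.07 (standard error 0.16, edgeR adjusted p = 0.907). The summed level of the group was 4814, 4676 and 3545 against 1636, 4151 and 2078, with means 1.66-fold apart. *Rrm1* made the larger part of these summed counts.

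All 4 genes that restore methylation and nucleosomes were higher at an unadjusted p under 0.05, against 6.14% of all genes tested. The group had a median log2 fold change of 0.90. *Uhrf1*, which reads hemimethylated DNA and recruits the maintenance methyltransferase, lies on chromosome 17 from 56303321 to 56323486. It had 432, 461 and 220 normalised counts in *Nhe6*-knockout and 73.3, 122 and 51.3 in wildtype cultures (log2 fold change 2.17, standard error 0.43, edgeR adjusted p = 0.116, and 0.0379 without wildtype replicate 2). The methyltransferase itself, *Dnmt1*, had 1712, 1890 and 1698 against 1018, 1446 and 1200 normalised counts (log2 fold change 0.53, standard error 0.16, edgeR adjusted p = 0.262). The subunits of the chromatin assembly factor, which places histones behind the fork, had values of 493, 510 and 395 against 317, 373 and 278 normalised counts for *Chaf1a* and 182, 190 and 106 against 43, 106 and 50.3 for *Chaf1b*. *Chaf1a* did not overlap between the genotypes (log2 fold change 0.53), whereas *Nhe6*-knockout replicate 3 met wildtype replicate 2 in *Chaf1b* (log2 fold change 1.26, both with edgeR adjusted p = 0.351).

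Partner genes were also compared within each library on the per-length scale, which does not depend on the scaling of the libraries. The length merges the exons of all annotated transcripts of a gene, 2771 bases for *Rrm2* and 11012 for *Rrm1*. The size of a ratio depends on these lengths and does not give the ratio of mRNA molecules. The lengths are the same in every library, so a ratio can still be compared between cultures. These 9 ratios were chosen after the values of the genes had been seen. The level of *Rrm2* was 129%, 140% and 93.5% of that of *Rrm1* in the *Nhe6*-knockout cultures and 47.4%, 32.2% and 28% in the wildtype cultures. Relative to *Rrm2b*, the reductase subunit used outside S phase, *Rrm2* was at 298%, 321% and 170% against 32.2%, 55.9% and 16.4%. Both ratios were higher in each *Nhe6*-knockout culture, also beside wildtype replicate 2 with its high *Rrm1*. *Tk1* was at 17.8%, 17.2% and 5.49% of *Tk2*, the mitochondrial thymidine kinase, in *Nhe6*-knockout cultures and at 0.512%, 2.15% and 0.278% in wildtype cultures.

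*Orc1* was at 0.7%, 0.953% and 0.579% of the sum of *Orc2* to *Orc6* in *Nhe6*-knockout cultures and at 0.176%, 0.287% and 0.0856% in wildtype cultures. *Uhrf1* was at 43.7%, 42.2% and 22.4% of *Dnmt1* against 12.5%, 14.6% and 7.41%, and *Pole* was at 17.4%, 15.5% and 9.76% of *Pole3* against 5.33%, 6.27% and 6.32%. Within the ring, *Mcm5* was at 39.2%, 41.4% and 29.3% of *Mcm6* against 12.8%, 20.2% and 10.2%, and *Mcm3* was at 34.5%, 33.5% and 20.7% of *Mcm4* against 13.7%, 13.6% and 11.5%. The ratio of *Cdt1* to its inhibitor *Gmnn* was the exception, at 23.3%, 41.8% and 29.9% against 22.4%, 61.3% and 30.2%. In an exact permutation test (two-sided) this ratio gave p = 0.8, and each of the other 8 ratios gave p = 0.1, the smallest that 3 cultures against 3 can give, or 0.113 after Benjamini-Hochberg adjustment over the 9 ratios.

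**Figure D3:**
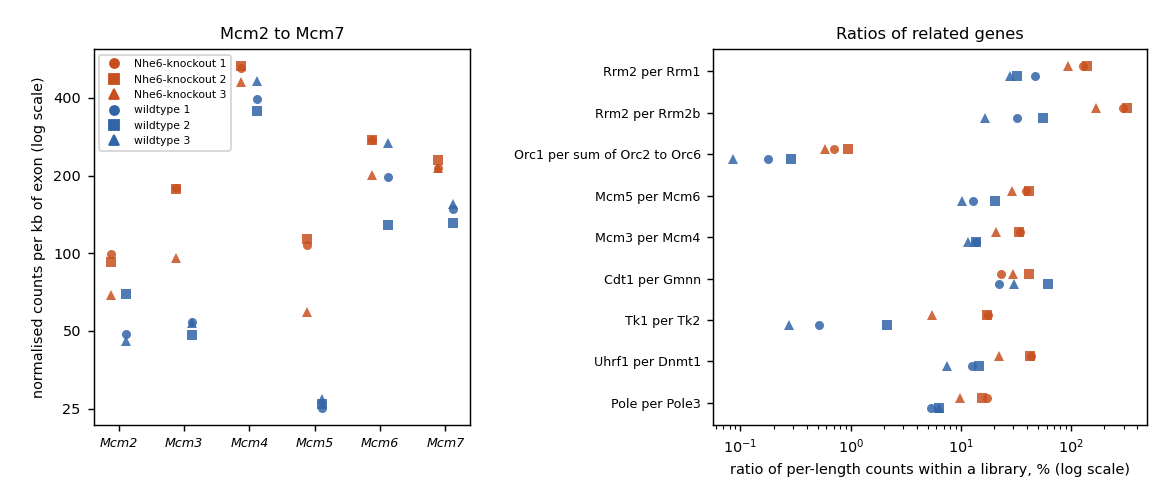
Left, normalised counts per kb of exon (log scale) of the 6 ring subunits in each culture; right, ratios of the per-length counts of related genes within each library in percent (log scale), with *Nhe6*-knockout cultures in orange and wildtype cultures in blue. *Mcm5* lies between 59 and 114 in *Nhe6*-knockout and between 25.2 and 27.3 in wildtype cultures while *Mcm4* and *Mcm6* overlap, and of the ratios the one of *Cdt1* to *Gmnn* overlaps between the genotypes.

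Genes with and without the promoter site were set side by side. The 17 genes with an E2F-type site had a median log2 fold change of 0.60, and 11 of them had an unadjusted p under 0.05. The 26 genes with a promoter in the table but no such site had a median of 0.34, and 9 of them had that p. Both sets held genes near 0: *Orc3*, *Pold3* and *Rfc3* carried a site with log2 fold changes of 0.01, -0.21 and 0.21, and *Mcm6*, with 3 sites, had 0.35, whereas *Mcm10*, *Rrm2* and *Tk1* carried none in the window. For the CCAAT box the medians were 0.36 with the box (27 genes) and 0.64 without it (16 genes), and for the CHR element 0.56 (8 genes) and 0.51 (35 genes).

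Other genes of the same process were read from lists of their own. Of 26 genes of origin firing and fork protection, 11 were higher at an unadjusted p under 0.05, against 6.14% of all genes tested, and 0 were lower. The median log2 fold change of the 26 genes was 0.76, with 0 genes past the adjusted threshold in edgeR's test. DESeq2 called 5 of the 26 genes higher, against 2.85% of all genes. Without wildtype replicate 2, edgeR's test called 6 of them higher, against 1.62% of all genes. *Clspn*, a mediator of the replication checkpoint, had 258, 257 and 156 normalised counts in *Nhe6*-knockout and 33.2, 41.3 and 34.2 in wildtype cultures (log2 fold change 2.62, edgeR adjusted p = 0.0619). *Ticrr*, needed to fire origins, and *Dbf4*, the activator of the *Cdc7* kinase, had log2 fold changes of 2.37 and 1.73, and *Top2a*, a topoisomerase that untangles the copied strands, had 3.34. The 7 remaining subunits of the complexes named above (such as *Pole3* at -0.03) held 0 genes with that p, with a median of 0.17. Of 18 further genes of dNTP supply, 4 were higher at that p (*Dctd*, *Cad*, *Shmt1* and *Slc29a1*) and 2 were lower. The shares of all genes tested were 6.14% and 5.71%, and the median of the 18 genes was 0.28. DESeq2 called 1 of the 18 genes higher (*Slc29a1*), against 2.85% of all genes. The lower genes were *Rrm2b*, with 1049, 1012 and 1051 against 1239, 1569 and 1892 normalised counts (log2 fold change -0.59), and *Tk2*, with 823, 785 and 935 against 1181, 1088 and 1057 (log2 fold change -0.39), the relatives of *Rrm2* and *Tk1* that serve cells outside S phase.

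Genes of mitosis lay higher in the same libraries. All 14 genes of that list were higher at an unadjusted p under 0.05, against 6.14% of all genes tested. All 14 were higher without overlap, against 10.3%. Their median log2 fold change was 2.90, and 0 of them passed the adjusted threshold in edgeR's test. With DESeq2 14 were called higher, against 2.85% of all genes. Their summed level was 12300, 12213 and 6207 normalised counts in *Nhe6*-knockout and 1906, 1857 and 1140 in wildtype cultures, a 6.27-fold difference of the means, and *Nhe6*-knockout replicate 3 was again the lowest of its genotype. The means of the summed replication groups differed 1.42-fold for the helicase, 1.02-fold for licensing, 1.21-fold for polymerases and primase, 1.12-fold for the clamp, its loader and RPA, 1.31-fold for Okazaki fragment maturation, 1.66-fold for dNTP supply and 1.63-fold for chromatin. The part of the mitotic genes, or of the number of cycling cells, in the differences of the replication genes was not tested. Summed markers of other cells overlapped between the genotypes for all lists, with 21875 to 23592 normalised counts in *Nhe6*-knockout and 16267 to 29930 in wildtype cultures for the 10 mural markers and 1220 to 2964 against 94.9 to 2982 for the 10 macrophage markers. For the 9 melanocyte markers the sums were 411 to 714 against 288 to 1176, and for the 9 epithelial markers 67.2 to 766 against 87.7 to 1148, with *Kcne1* at 0. Such sums rest mostly on the few markers with many reads, and single markers differed in value between the genotypes. Beside *Cdh5*, an unadjusted p under 0.05 was reached by *Flt1* (log2 fold change -1.79) and *Esam* (-3.54) of the endothelial list. It was also reached by *Dcn* (1.00) of the fibroblast list and by *Notch3* (1.24) and *Abcc9* (2.33) of the mural list, and by 0 macrophage, melanocyte or epithelial markers. Of the 10 fibroblast markers 7 lay above 0 and 3 below, and of the 10 mural markers also 7 and 3. The lowest of these lists were *Col1a1* (-3.35) and *Acta2* (-3.14), for which wildtype replicate 2 had 27174 and 16267 normalised counts. The other wildtype cultures had 207 and 213 for *Col1a1* and 29.3 and 70.6 for *Acta2*. Without wildtype replicate 2 the log2 fold changes were 2.10 and 3.63. *Cdh5*, *Flt1*, *Dcn* and *Notch3* passed the threshold with DESeq2. *Dcn* had 4048, 3832 and 4832 normalised counts in *Nhe6*-knockout and 1970, 1862 and 2512 in wildtype cultures, and *Notch3* had 1842, 1945 and 2828 against 692, 1379 and 722, both without overlap and, unlike most replication genes, with *Nhe6*-knockout replicate 3 the highest. The part of these cells in the differences was not tested.

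**Figure D4:**
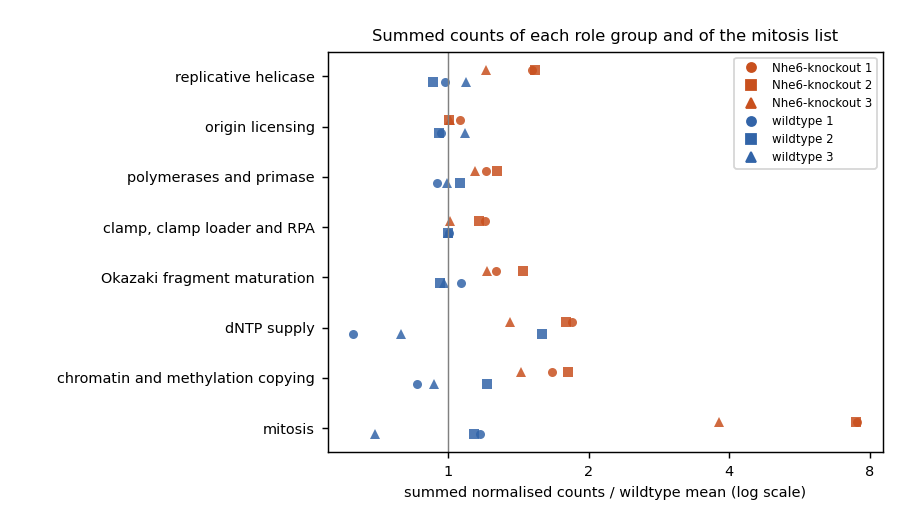
Summed normalised counts of each role group and of the mitosis list in each culture, divided by the mean of the 3 wildtype cultures (log scale), with *Nhe6*-knockout cultures in orange and wildtype cultures in blue. The mitosis sums of the *Nhe6*-knockout cultures lie far to the right (6.27-fold by the means), the licensing sums overlap (1.02-fold), and wildtype replicate 2 lies among the *Nhe6*-knockout cultures for dNTP supply.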

How the data were processed

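The authors deposited 1 table of raw counts of reads per gene symbol for 6 libraries (3 *Nhe6*-knockout and 3 wildtype cultures), from poly(A)-enriched, stranded libraries sequenced with 75 cycles. The submitters' processing notes name bcl2fastq 2.20.0.422, STAR 2.7.7a, HTSeq 0.13.5, DESeq2 1.26.0 and the build mm10. The strand setting of the counting is not given in the sources used here. Of the 51 genes, 12 overlap a gene of the table on the opposite strand and 4 overlap one on the same strand, so their counts may hold or lack reads of a neighbour. Lines that name no gene held 22.2% of all reads and were left out. The DESeq2 named by the submitters made no deposited value used here.

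Genes were filtered with filterByExpr (minimum count 10), which left 13479 genes, and normalised with TMM (factors 0.976 to 1.03). The test was the quasi-likelihood F test (edgeR 4.0.16, R 4.3.3; two-sided, genotype as the only term, Benjamini-Hochberg adjustment over all genes tested, threshold 0.05). Standard errors were computed as |log2 fold change| over the root of F, and intervals cover 95%. Fits were also run on simulated counts. Recovery of the changed genes was required there only at a fixed dispersion, not at the spread of these cultures. Alternatives were DESeq2 size factors, upper-quartile normalisation, no low-count filter other than 1 read, 10 or more reads in all 6 libraries, DESeq2 1.42.0 (Wald test), limma-voom (limma 3.58.1), a replicate block, the sum of *Nhe6*-knockout replicates 1 and 2, and leaving out each culture. Gene positions and exon lengths (exons of all transcripts of a gene merged) came from GENCODE M21 (GRCm38), and promoters from RefSeq. The members and lists were chosen with earlier results of these data known. For each role, every library's value is given for the members with the largest and the smallest log2 fold change, with the highest mean count or past the threshold. The other members given in full were chosen after their values were seen. Motifs of the member proteins were not analysed here. The level of the targeted gene is not reported here.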

Additional observations from a re-analysis of the deposited data

How the results depend on the processing

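The number of genes past the adjusted threshold, 9 of all genes tested in edgeR's test, was 21 with no filter beyond 1 count, 21 with at least 10 counts in every library, 627 with DESeq2, 2 with the replicate block, 1 with *Nhe6*-knockout replicates 1 and 2 summed, and 0 to 395 with 1 culture left out (395 without wildtype replicate 2). Of the 51 replication genes, 11 passed with DESeq2 and 0 to 5 with 1 culture left out, the 5 without wildtype replicate 2. An unadjusted p under 0.05 was reached by 12 genes with *Nhe6*-knockout replicates 1 and 2 summed and by 12 to 24 with 1 culture left out. The median log2 fold change was 0.37 with at least 10 counts in every library, a filter that removed *Orc1* and *Tk1*.

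The direction of a single gene turned in 25 of 712 values (10 genes, 14 alternatives), each in a gene near 0. With no filter these were *Orc3* (-0.0028), *Orc4* (-0.01) and *Prim2* (-0.0094), and with the replicates summed *Prim2* (-0.0089). *Pold2* turned to 0.0067 with upper-quartile normalisation, 0.0035 with limma-voom and 0.0049 with the replicate block. With 1 culture left out the log2 fold changes ran from -0.06 to 0.35 for *Gins1*, from -0.06 to 0.11 for *Orc3*, from -0.06 to 0.08 for *Orc4*, from -0.02 to 0.14 for *Orc6*, from -0.23 to 0.08 for *Pold2*, from -0.06 to 0.04 for *Prim2*, from -0.0015 to 0.25 for *Rfc2*, from -0.11 to 0.36 for *Rfc3*, from -0.14 to 0.03 for *Dut* and from -0.13 to 0.0045 for *Rnaseh2a*. The cause was not tested.

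The replicate numbers were not used to pair the cultures in the main fit. Same-numbered cultures had correlations of their deviations of 0.207, -0.189 and 0.111, and not every culture correlated best with its own number. Deviations from means of 3 cultures cannot show whether same-numbered cultures were prepared together. With the replicate block 0 of the 51 genes passed after adjustment, 21 had an unadjusted p under 0.05 and the median was 0.53. With 3 cultures a genotype, a gene such as *Orc1* with 4.28 to 41.8 normalised counts is limited by its depth.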

Other observations

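Replication-dependent histone genes make the protein that packs new DNA, from mRNAs that mostly end without a poly(A) tail. Their symbols were therefore read separately, since poly(A)-enriched libraries mostly leave out such mRNAs. The values below do not measure the histone mRNA made for replication. Of 68 such symbols in the table, 5 had enough counts to be tested, and 57 had fewer than 10 reads in every library. All 5 had log2 fold changes below 0, with a median of -0.69. Of them, 2 were lower at an unadjusted p under 0.05, against 5.71% of all genes tested. *Hist1h2bc* had 1054, 1015 and 1368 normalised counts in *Nhe6*-knockout and 2125, 1767 and 1667 in wildtype cultures (log2 fold change -0.69, edgeR adjusted p = 0.179, DESeq2 adjusted p = 0.0221). The sum over all 68 symbols was 1779, 1850 and 2487 in *Nhe6*-knockout and 4046, 3155 and 2852 in wildtype cultures, without overlap and with the order of the genotypes opposite to that of the replication genes.

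The 8 genes of histone chaperones and histone mRNA had a median log2 fold change of 0.01. Of them, 1 was higher at an unadjusted p under 0.05, against 6.14% of all genes tested. This was the chaperone *Asf1b*, with 207, 215 and 116 normalised counts against 27.4, 22.7 and 16 (log2 fold change 3.02, edgeR adjusted p = 0.0757). Among 17 genes of the E2F family and its pocket proteins, 4 were higher at an unadjusted p under 0.05 and 1 was lower. Of all genes tested 6.14% and 5.71% were, so the 1 lower gene of 17 is near that share. The median of the 17 genes was 0.02. *E2f7* and *E2f8*, repressors that are themselves made in S phase, had log2 fold changes of 2.74 and 2.57, whereas *E2f1* had 864, 957 and 877 normalised counts against 1167, 1997 and 714 (log2 fold change -0.52, edgeR adjusted p = 0.634). The lower gene was the pocket protein *Rbl2*, abundant in resting cells, with 2813, 2915 and 3005 against 3651, 3669 and 3786 normalised counts (log2 fold change -0.35, edgeR adjusted p = 0.254). Of 15 other DNA polymerase genes 14 were tested, of which *Polq* was higher (log2 fold change 1.61) and *Polb* lower (-0.34) at an unadjusted p under 0.05, a share of 1 in 14 in each direction that is near the 6.14% and 5.71% of all genes tested, and *Dntt* had no read. None of these genes passed the threshold in edgeR's test of all 6 cultures after adjustment. DESeq2 called *Asf1b*, *E2f7*, *E2f8* and *Polq* higher and *Rbl2* lower, where it called 2.85% of all genes higher and 1.83% lower. Without wildtype replicate 2, edgeR's test called *Asf1b*, *E2f7* and *E2f8* higher, where it called 1.62% of all genes higher.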
